A study of Mus musculus with 5 samples.

Results

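REST is a zinc finger repressor that binds a DNA element called RE1 beside neuronal genes and keeps them low outside neurons. It works through a pair of recruited complexes. One end of the protein recruits SIN3A with the histone deacetylases HDAC1 and HDAC2, and the other recruits CoREST (the RCOR scaffolds) with the histone demethylase KDM1A, the same deacetylases, and the subunits HMG20B and PHF21A. The transcripts of these 10 genes, Rest, Rcor1, Rcor2, Rcor3, Sin3a, Hdac1, Hdac2, Kdm1a, Hmg20b and Phf21a, were followed here probe by probe when the protein kinase DYRK1A was added to mouse neuroblastoma cells. Probes were taken where the platform annotation names 1 of the 10 genes. The 10 are among 19087 genes on the array. They gave 18 of its 44290 features, and 13 of the 18, with at least 1 for each gene, had a value on all 5 arrays.

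The promoters of the members were looked at for the element that REST binds. RefSeq promoter windows of build GRCm38.p6, from 250 bases before to 50 after a start, matched 8 of the 10 members, all but Rest and Hdac1. RE1 was searched on both strands as AGCACCNNGGNCAG, its left and right parts at their usual distance. Of several spellings tried, this one was chosen after matches were seen. It occurred in 33 of 32851 windows, 0.1% of all, in 0 of the 8 members and in 3 of 28 listed REST target genes. A gene was counted if any of its windows matched, so counts of genes and shares of windows are in different units. A stricter spelling, AGCACCNNGGACAG, was in 0.0517% of windows and in Gria2 alone among these genes. The 3 matches in target genes are shown as examples of the element as spelled here. They are matches of letters, and binding was not measured. They are written 5′ to 3′ on the gene's strand, with the element in capitals (Gria2 carries it on the opposite strand).
Gria2, chr3:80802984-80803013, minus strand: ccaaagcgCTGTCCGCGGTGCTaaaatcga
Celsr3, chr9:108825913-108825942, plus strand: ctccgttcAGCACCGTGGGCAGcacttctg
Syn1, chrX:20921126-20921155, minus strand: tcggattcAGCACCGCGGTCAGagccttcg

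The members held single parts of the element at most. Rcor2 had the right part, GGACAG, found in 22.2% of all windows, and Phf21a had the left part, AGCACC, on the opposite strand, found in 16.2%. Both are given with that part in capitals so that they can be set against the complete elements.
Rcor2, chr19:7267314-7267343, plus strand: tccccgtgggagGGACAGcgggcgggggct
Phf21a, chr2:92185488-92185517, plus strand: attctgctgagcGGTGCTgttaggatttct

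The cells were N18, a mouse neuroblastoma line. One set of cultures received pAd-Dyrk1a, an adenovirus with the coding sequence of Dyrk1a, and the control set received the adenovirus pAd-Track-CMV, so both sides carried virus. The time after infection and the dose of virus are not given in the sources used here. Each of the 5 two-colour Agilent arrays set 1 Dyrk1a RNA against 1 control RNA, with Dyrk1a in Cy5 on replicates 1, 2 and 3 and in Cy3 on replicates 4 and 5. The submitters describe the 5 measurements as independent, but nothing says which cultures were separate, so p-values measure the spread between these arrays, which may be partly technical. Values are Dyrk1a over control vector, taken to be log2 ratios and centred on each array's median. They are ratios only, so no level of any gene, and no check of the cell line by its markers, could be had from them, and fewer cells with a transcript cannot be told apart from less of it per cell.

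The direction of every value below rests on 1 Dyrk1a probe (feature 6362). Its values were 2.46, 2.30, 1.93, 3.02 and 2.38 in replicates 1 to 5, above 0 in both dye orientations, so the columns of the dye-swapped arrays were read as already turned. The fitted change was 2.47 (SE 0.12, limma adjusted p = 0.00953), and the adjusted p was 0.279 without replicate 1 (fitted 2.41) and 0.0561 without replicate 4 (fitted 2.30). Other Dyrk1a features, not measured on every array, did not show this rise. Feature 18171 read -0.091, -0.12, -0.0010 and -0.017 in replicates 1 to 4, and feature 4200 read 0.095 and 0.032 in replicates 1 and 5. Why they differ from feature 6362 was not tested. Over all measured features, unnamed ones included, arrays of opposite orientation correlated at -0.69 to -0.42. Over the tested features that name 1 gene these correlations were -0.18 to 0.062, against -0.0051 to 0.64 between arrays of the same orientation. Dye therefore had to be modelled for each probe, and values under the other reading, with replicates 4 and 5 turned in sign, are given beside the results they change most. Replicate 2 had the widest spread, with an interquartile range of 0.318 over the tested features against 0.165 to 0.194 in the other arrays.

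None of the 13 fully measured probes of the REST and CoREST genes passed the threshold, an adjusted p under 0.05 in limma over 20113 features. By that rule 0.00497% of all tested features were called, which is 1 feature, Dyrk1a feature 6362. At an unadjusted p under 0.05 the limma fit gave 1 of the 13, Hmg20b, against 10.1% of all tested features (4.13% higher and 5.93% lower). Of the 13 fitted values 4 were above 0 and 9 below, with a median of -0.012 against 0.0049 over all tested features. The members' median ran from -0.033 without replicate 2 to 0.0095 without replicate 3, and was -0.039 with no dye term, 0.0012 with array weights and 0.0097 with replicates 4 and 5 turned in sign. No member probe was on the same side of 0 in all 5 arrays, where 10.9% of the tested features were (5.31% above and 5.55% below). The dye effect, fitted beside the Dyrk1a effect, was the larger of the pair in 7 of the 13, against 55.7% of all features. Members varied most in replicate 2, from -0.57 in Hdac2 to 0.45 in Rest, and by range least in replicate 1, from -0.24 in Rcor2 to 0.22 in Rcor1.

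**Figure D1:**
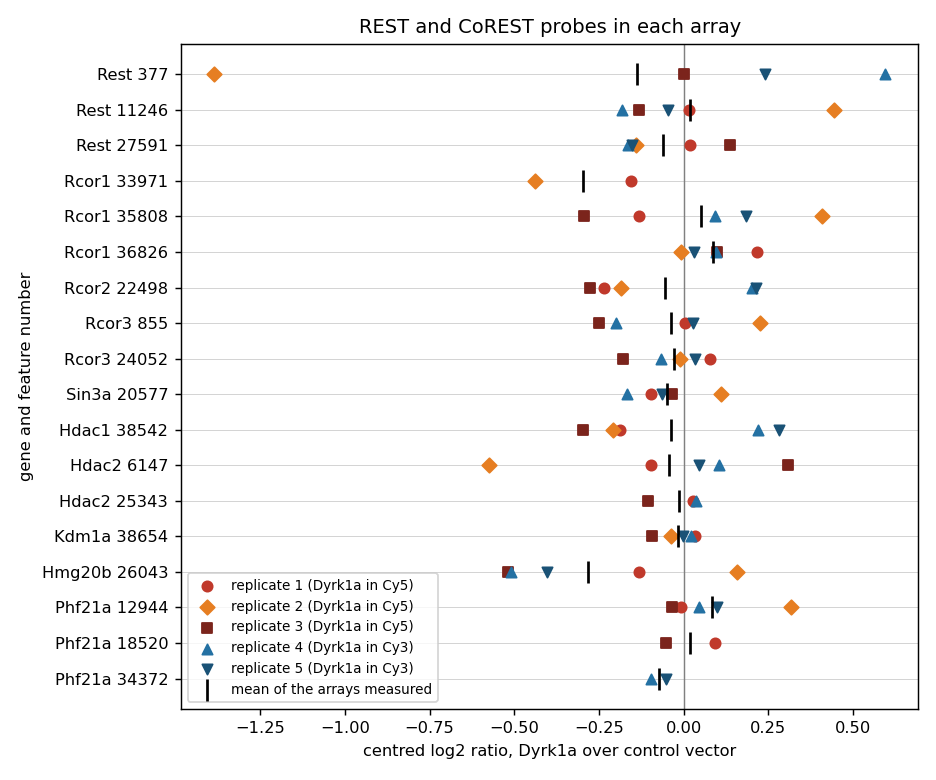
Centred log2 ratio of Dyrk1a over control vector (horizontal axis) for each of the 18 probes (rows, gene and feature number), with 1 symbol per array and a black bar at the mean of the arrays measured. Warm colours mark Dyrk1a in Cy5 and blue marks Dyrk1a in Cy3. Hdac1 and Rcor2 split by colour, and the Hmg20b values reach -0.52.

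Rest was read by 3 probes that did not move together. The reference transcript probe (feature 11246) read 0.015, 0.45, -0.13, -0.18 and -0.047 in replicates 1 to 5, as centred log2 ratios. A probe made from a cDNA clone (feature 27591) gave 0.019, -0.14, 0.14, -0.17 and -0.15. Both were above 0 in 2 arrays and below in 3, and in replicates 2 and 3 they lay on opposite sides of 0. Their difference averaged 0.080 ± 0.31 (SD, n = 5), so neither was reliably the higher. The fitted log2 ratios were -0.0028 (95% interval -0.21 to 0.21, limma adjusted p = 0.994) and -0.077 (95% interval -0.20 to 0.047, limma adjusted p = 0.694). The third probe (feature 377), which carries the same reference accession as the first, had no value in replicate 1 and read -1.39, 0.0020, 0.59 and 0.24 in replicates 2 to 5. Its SD of 0.87 over 4 arrays was above those of the other Rest probes, 0.25 and 0.13, and replicate 2 alone was far below 0. Fitted over features with at least 4 arrays it was at -0.14 (95% interval -0.69 to 0.42, limma adjusted p = 0.904).

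The CoREST scaffolds are encoded by 3 related genes, of which Rcor1 is the founding member. The Rcor1 probe designed on another mRNA record (feature 36826) had log2 ratios of 0.22, -0.0070, 0.098, 0.094 and 0.031 in replicates 1 to 5. It was above 0 in 4 of 5 arrays, at or next to 0 in the fifth, and its fitted value was 0.083 (95% interval -0.032 to 0.20, limma adjusted p = 0.639). It was called only when arrays were weighted by their estimated quality, at 0.13 (limma adjusted p = 0.0364), a fit in which 9.61% of all features were called. A reference transcript probe (feature 35808) spread more widely, at -0.13, 0.41, -0.29, 0.092 and 0.18. Without replicate 2 its fitted value went from 0.066 to -0.037 and the dye effect, at -0.17, passed the threshold (limma adjusted p = 0.0369). The last Rcor1 probe (feature 33971) was measured in replicates 1 and 2 only, at -0.16 and -0.44. In those arrays feature 36826 was at 0.22 and -0.0070 and feature 35808 at -0.13 and 0.41.

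Rcor3 had a pair of reference transcript probes that averaged alike. Feature 855 read 0.0040, 0.22, -0.25, -0.20 and 0.029 and feature 24052 read 0.078, -0.012, -0.18, -0.066 and 0.034 in replicates 1 to 5. Their difference was -0.0096 ± 0.14 (SD, n = 5). Both were above 0 in replicates 1 and 5 and below in replicates 3 and 4, and the fitted values were -0.046 (SE 0.077) and -0.027 (SE 0.051).

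Rcor2 and Hdac1 were split by dye orientation. Rcor2, the scaffold known from developing brain and stem cells, had log2 ratios of -0.24, -0.19 and -0.28 in replicates 1 to 3, where Dyrk1a carried Cy5, and of 0.20 and 0.21 in replicates 4 and 5, where it carried Cy3. Hdac1, a class I histone deacetylase shared by the SIN3 and CoREST complexes, read -0.19, -0.21 and -0.30 in the first orientation and 0.22 and 0.28 in the second. In both genes the orientations did not overlap. The Dyrk1a effects were -0.012 (95% interval -0.10 to 0.080) and 0.0093 (95% interval -0.087 to 0.11). The dye effects, each the distance of an orientation's mean from their midpoint, were -0.22 (SE 0.038, limma adjusted p = 0.0482) for Rcor2 and -0.24 (SE 0.040, limma adjusted p = 0.0431) for Hdac1.

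A dye effect passed the threshold in 2.2% of the tested features and in 2 of the 13 member probes, and 18.6% of all features had the pattern of 1 side of 0 per orientation. The dye calls lay near the threshold. Over 14 alternatives with a dye term Hdac1 kept its call in 6 and Rcor2 in 5. They held without replicate 2, at a limma adjusted p of 0.00741 for Rcor2 and 0.00897 for Hdac1, and were lost without each of the other 4 arrays, where the dye effects were still -0.22 to -0.21 for Rcor2 and -0.25 to -0.22 for Hdac1. With all 5 arrays they were also lost without centring (limma adjusted p = 0.0709 for Rcor2 and 0.0627 for Hdac1), with centring on every measured feature (0.0593 and 0.0518) and with unnamed features left out (0.0887 and 0.0862). The size of the Dyrk1a effect of both genes rests on the reading of the dye-swapped columns. If replicates 4 and 5 were turned in sign, Hdac1 would be at -0.24 and Rcor2 at -0.22, both called lower, and Dyrk1a itself would be at -0.24 and not called (limma adjusted p = 0.365).

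**Figure D2:**
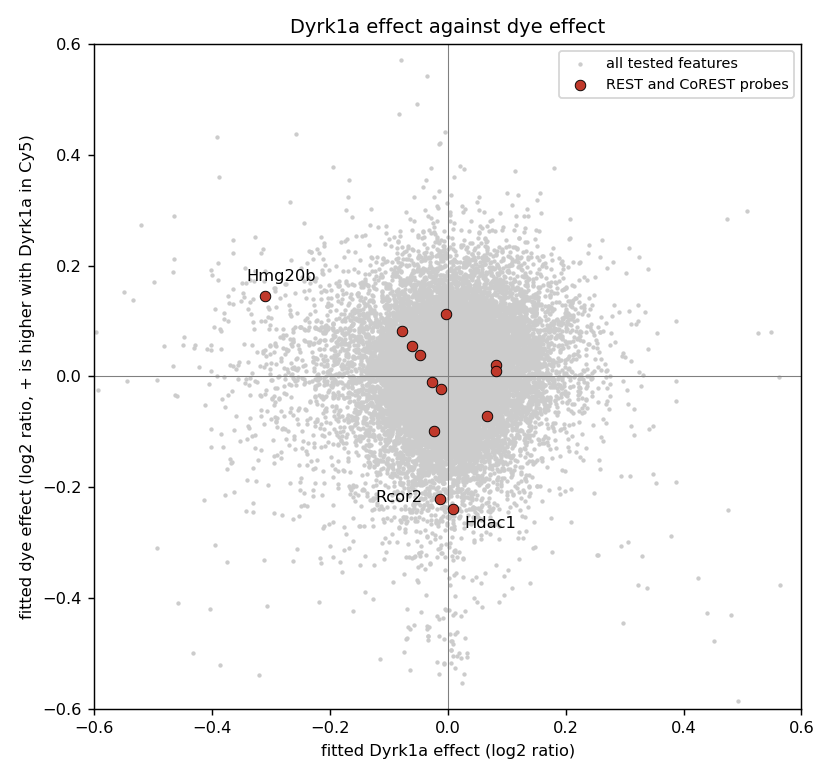
Fitted Dyrk1a effect (horizontal axis, log2 ratio) against fitted dye effect (vertical axis, log2 ratio, positive where the ratio was higher with Dyrk1a in Cy5) for all tested features (grey) and the 13 member probes (red). Axes stop at 0.6, which leaves out 270 features. Hdac1 and Rcor2 lie far down the dye axis near 0 on the Dyrk1a axis, and Hmg20b lies at -0.31 on the Dyrk1a axis.

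The other catalytic subunits differed in how well they were measured. Kdm1a, which removes methyl groups from lysine 4 of histone H3, had the smallest spread of the 13 probes, with log2 ratios of 0.032, -0.038, -0.094, 0.023 and -0.0010 (mean -0.016 ± 0.052, SD, n = 5). Its fitted value was -0.011, with a 95% interval of -0.11 to 0.085. Hdac2, the paralog of Hdac1, had the largest spread. Its reference transcript probe (feature 6147) read -0.097, -0.57, 0.31, 0.10 and 0.046, a fitted -0.023 with a 95% interval of -0.31 to 0.27. Without replicate 2 that probe was fitted at 0.091 (95% interval -0.060 to 0.24), and without replicate 3 at -0.13. A cDNA clone probe of Hdac2 (feature 25343) was measured in replicates 1, 3 and 4 only, at 0.027, -0.11 and 0.037.

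Sin3a, the scaffold of the other REST-bound deacetylase complex, had log2 ratios of -0.095, 0.11, -0.034, -0.17 and -0.065, below 0 in 4 of 5 arrays. The fitted value was -0.061 (95% interval -0.18 to 0.053, limma adjusted p = 0.739). Replicate 2 was the array above 0, and without it Sin3a was at -0.090 (limma adjusted p = 0.248).

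Phf21a, also called BHC80, reads unmethylated lysine 4 of histone H3 within the CoREST complex. Its reference transcript probe (feature 12944) had log2 ratios of -0.0080, 0.32, -0.034, 0.046 and 0.098, with replicate 2 far above the rest. The fitted value was 0.082 (95% interval -0.070 to 0.23), and 0.026 without replicate 2. A pair of cDNA clone probes was partly blank. Feature 18520 read 0.093 and -0.053 in replicates 1 and 3, and feature 34372 read -0.096 and -0.052 in replicates 4 and 5.

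Hmg20b, an HMG box subunit of the CoREST complex also called BRAF35, had the lowest fitted value among the members. Its log2 ratios were -0.13, 0.16, -0.52, -0.51 and -0.40 in replicates 1 to 5, below 0 in 4 of 5 arrays and above 0 in replicate 2. The mean was -0.28 ± 0.29 (SD, n = 5). The fitted change was -0.31 (SE 0.096, 95% interval -0.54 to -0.078), a 1.24-fold lower ratio that ranked 994 of 20113 by p and was not called (limma adjusted p = 0.341). An exact permutation test by turning array signs cannot go below p = 0.0625 with 5 arrays, so no single probe was tested that way.

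Hmg20b passed only where replicate 2, its 1 array above 0, was left out or given a low weight. Without that array the fitted value was -0.39 (95% interval -0.54 to -0.24), a 1.31-fold lower ratio with a limma adjusted p of 0.0276. In that fit 2.95% of the tested features were called, and Hmg20b was the only 1 of the 13 member probes among them. Array weights, which gave replicate 2 a weight of 0.152 against 3.45 for replicate 1, put Hmg20b at -0.32 (limma adjusted p = 0.00553), where 2 of the 13 member probes and 9.61% of all features were called. Without replicates 1, 3, 4 and 5 in turn, Hmg20b was not called, at -0.32, -0.22, -0.28 and -0.34. Its 95% interval held 0 without replicate 4 (-0.62 to 0.056) and without replicate 5 (-0.68 to 0.0028). In 15 probe-level alternatives that keep the deposited direction the fitted value stayed between -0.39 and -0.22. With replicates 4 and 5 turned in sign it would be 0.15 (limma adjusted p = 0.497).

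**Figure D3:**
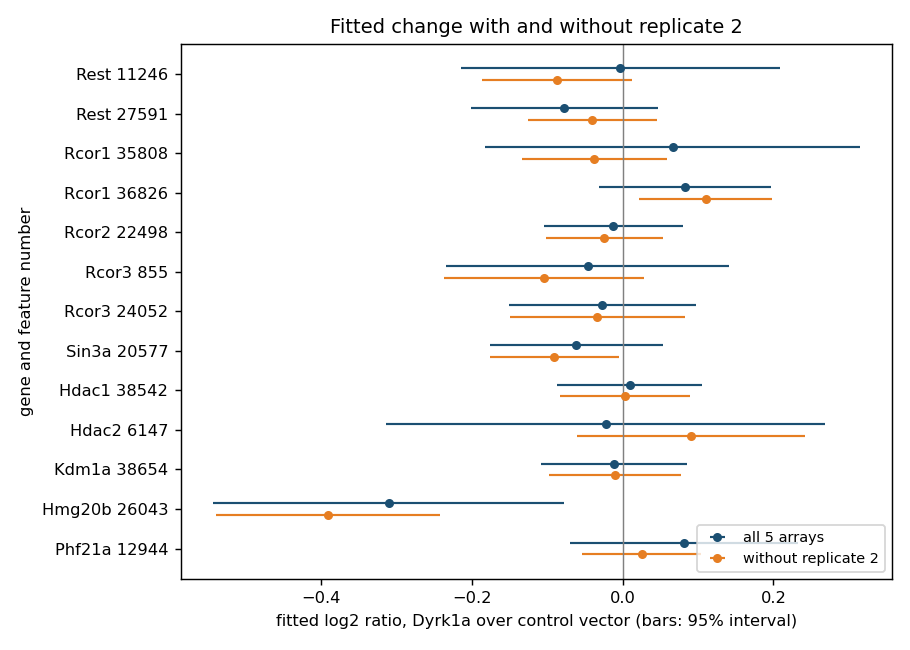
Fitted log2 ratio of Dyrk1a over control vector (horizontal axis) with its 95% interval for the 13 fully measured member probes, over all 5 arrays (blue) and without replicate 2 (orange). Hmg20b lies below 0 in both fits, at -0.31 and -0.39, and the Rcor1 probe 35808 and Hdac2 change side.

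A promoter window of Hmg20b, the member with the lowest fitted value, is shown. It is a GC-rich window of 66.0% G and C, against a median of 52.7% over all windows, with 35 CpG pairs against a median of 7. Capitals mark GGGCGG on either strand, the GC box, with 4 matches in this window, the first listed for the gene. The gene's other listed windows, which overlap this one, had 3 each. At least 1 GC box was in 35.7% of all windows. Counted by gene, where any window of a gene sufficed, it was in 7 of the 8 members, all but Kdm1a.
Hmg20b, chr10:81350408-81350707, minus strand: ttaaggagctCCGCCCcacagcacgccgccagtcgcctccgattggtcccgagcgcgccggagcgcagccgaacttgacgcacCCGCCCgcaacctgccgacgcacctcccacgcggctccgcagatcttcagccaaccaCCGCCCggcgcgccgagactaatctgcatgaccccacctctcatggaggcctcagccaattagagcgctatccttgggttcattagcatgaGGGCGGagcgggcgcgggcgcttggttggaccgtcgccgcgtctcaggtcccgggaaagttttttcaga

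For the 12 fully measured member probes other than Hmg20b every 95% interval held 0. The intervals ran from -0.31 at the lowest to 0.31 at the highest, so changes above 1.24-fold lay outside all of them. For Rcor2, with the lowest SE in this fit, changes above 1.08-fold lay outside. Both limits belong to the main fit and moved either way in the alternatives. The Rcor2 interval was -0.27 to 0.16 with no dye term and -0.077 to 0.045 with array weights. That of Hdac2 (feature 6147) was -0.46 to 0.39 without replicate 4 and -0.060 to 0.24 without replicate 2. Rest feature 377, fitted over features with at least 4 arrays, had a wider interval of -0.69 to 0.42. The other partly measured probes are given no bound here. Each interval is for 1 probe, with no adjustment for the number of probes. The Rcor2 limit rests on the reading of the dye-swapped columns, since with replicates 4 and 5 turned in sign its interval would be -0.31 to -0.13. These bounds hold for the probes named and for log2 ratios. If the deposited values were natural logs each log2 value would be 1.44 times larger, and another base would change it by another factor.

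Other genes of the network were counted by list, without a test of the list. Among partners of CoREST and KDM1A, 14 features of 10 genes were tested and 0 were called in limma. At an unadjusted p under 0.05 the limma fit gave 1 higher, against 4.13% of all features. The median was 0.023, and 10 of the 14 were above 0, where 52.8% of all features were. Ctbp2, a corepressor found with CoREST, was above 0 in 5 of 5 arrays at 0.0010, 0.26, 0.090, 0.12 and 0.19 (feature 27953, fitted 0.14, limma adjusted p = 0.443). A second Ctbp2 probe (feature 35404) was above 0 with Dyrk1a in Cy5 and below 0 with it in Cy3. Gfi1b, a blood cell repressor that binds KDM1A, was above 0 in 5 of 5 arrays at a fitted 0.054 (feature 22551). Gse1 was at -0.11 (feature 42343) and Zmym2 (feature 11768), a zinc finger partner of the complex, at -0.093 with its 3 Cy5 arrays below 0 and its Cy3 arrays above.

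Partners of SIN3A gave 29 tested features, of which 6 had a fitted value above 0 and 23 below, where 52.8% of all features were above 0. With probes averaged 3 of the 15 genes were above 0 and 12 below, where 55.5% of all genes were above 0. The median was -0.038, and the list's medians by array were -0.024, -0.079, -0.037, -0.051 and -0.035, below 0 in each. With replicates 4 and 5 turned in sign the median would be -0.0083. No feature was called in limma and 1 was lower at an unadjusted p under 0.05, as 5.93% of all features were. That was Rbbp4, a histone-binding protein shared by SIN3 and other chromatin complexes, at -0.26, -0.21, -0.22, -0.13 and -0.18 (feature 19876, fitted -0.19, SE 0.038, limma adjusted p = 0.155). It passed without replicate 2, at -0.20 (limma adjusted p = 0.0322). The other fully measured Rbbp4 probes were fitted at -0.15 (feature 20188) and -0.044 (feature 28859). Ing2, which reads methylated lysine 4 of histone H3, was below 0 in 5 of 5 arrays at a fitted -0.074 (feature 24422), with its other probes at -0.073 (feature 16401) and -0.022 (feature 13242). On the other side Brms1, a SIN3 complex subunit, was at 0.16 (feature 18470), 0.054 without replicate 2, and Sin3b, the paralog of Sin3a, at 0.052 (feature 37843).

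Other cofactors and regulators of REST had a median of -0.013 over 30 tested features of 17 genes, with 13 above 0. In limma 0 were called, and 1 was lower at an unadjusted p under 0.05, against 5.93% of all features. Of the 30 features 13 had 1 side of 0 per dye orientation, 43.3% against 18.6% of all. In limma 0 dye effects passed the threshold, and 10 had an unadjusted p under 0.05, against 17.4% of all features. The list's median was 0.0050 without replicate 2, 0.0028 without replicate 4 and 0.011 without replicate 5. Ctdspl, a small CTD phosphatase that REST recruits, was below 0 in 5 of 5 arrays at a fitted -0.098 (feature 13917), while a second probe, measured in 4 arrays, was above 0 in replicates 4 and 5. Smarca4, the ATPase of the SWI/SNF remodelling complex, had probes fitted at 0.13, -0.14 and -0.020 (features 35362, 33345 and 37544). In the separate fit to the mean of a gene's probes Smarca4 was at -0.014. Feature 35362 was at 0.058 without replicate 2. Usp15, a deubiquitinase, was at -0.22 by 1 probe (feature 36418), -0.12 without replicate 3, and between -0.057 and 0.063 by its other fully measured probes. Prickle1, which acts in the nuclear transport of REST, was at 0.098 (feature 1318, 0.046 without replicate 2) and -0.0018 (feature 30029).

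**Figure D4:**
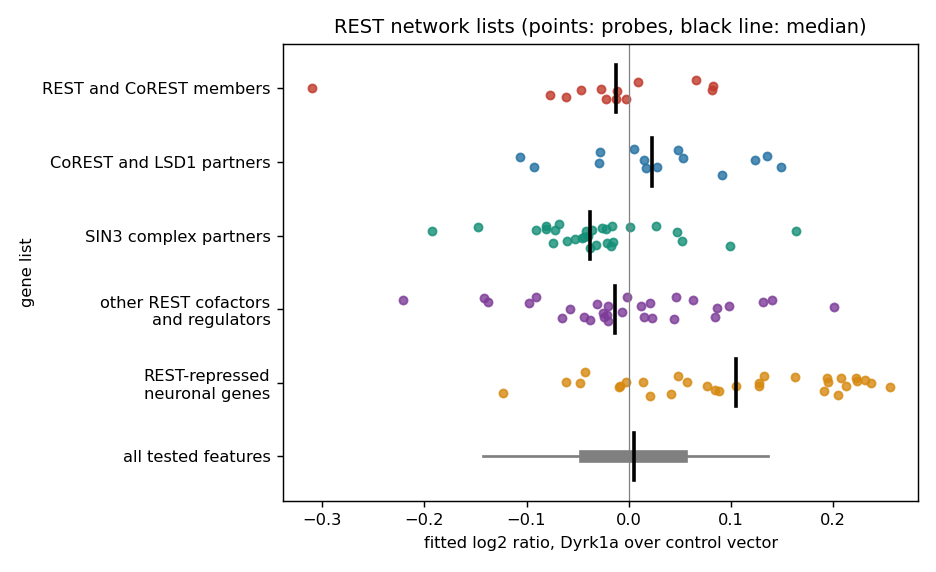
Fitted log2 ratio of Dyrk1a over control vector (horizontal axis) for each tested feature (points) in the members and 4 lists of the REST network, with the median as a black line. The grey bar spans the quartiles of all tested features and the thin line the 5th to 95th percentile, -0.14 to 0.14. The cluster near 0.21 among REST-repressed neuronal genes holds the 10 tested Chgb features.

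The neuronal genes that REST represses had a median of 0.11 over 31 tested features, 24 of them above 0. It was 0.061 without replicate 2, 0.051 over features measured on at least 3 arrays and 0.019 with replicates 4 and 5 turned in sign. That median was weighted by 1 gene. Chgb, which encodes the secretory granule protein chromogranin B, occupied 10 of the 31 features, all with the same reference accession. Their medians by array were 0.48, 0.33 and 0.46 in replicates 1 to 3 and -0.067 and 0.072 in replicates 4 and 5, higher in the Cy5 orientation. The 10 Chgb features were fitted at 0.19 to 0.24 with limma adjusted p of 0.125 to 0.285, and since they read 1 gene in the same RNA they are 1 observation and not 10. Their dye effects were 0.18 to 0.28, and with replicates 4 and 5 turned in sign 2 Chgb features would be called higher, feature 2463 at 0.25 (limma adjusted p = 0.0353) and feature 5983 at 0.28 (limma adjusted p = 0.0352). The pair with the smallest p (features 37359 and 29396) was called without replicate 2, at 0.25 and 0.24 (limma adjusted p = 0.0232 and 0.0227).

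Counted by gene, the target list was nearer to the rest. Of 19 genes 13 were above 0, against 55.5% of all tested genes, and the median was 0.050 against 0.0092. Over the 21 features other than Chgb the median was 0.049 with 14 above 0. At an unadjusted p under 0.05 the limma fit gave 2 higher, Chga at 0.16 and the neuronal tubulin gene Tubb3 at 0.26, both above 0 in 5 of 5 arrays, and 1 lower. Over all tested features 4.13% were higher and 5.93% lower by that rule. Chga and Tubb3 were named after their values were seen. The lower gene was the muscarinic receptor gene Chrm4 at -0.12 (feature 35495), and Oprm1, an opioid receptor gene, was at -0.061 (feature 20545). No target feature was called in limma.

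The genes with a complete element were not called. Celsr3, a cell adhesion receptor of growing axons, read -0.083, -0.27, -0.14, 0.12 and 0.20 in replicates 1 to 5, 1 side of 0 per dye orientation (feature 387, fitted -0.0025). Syn1, synapsin I of synaptic vesicles, read -0.11, 1.03, -0.51, 0.037 and 0.11 (feature 35221), spread too widely for its fitted 0.11 (SE 0.21) to be told from 0. Gria2, a glutamate receptor subunit, had no probe measured on all 5 arrays. These genes were named for their promoter match, after their values were seen.

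Markers of cell types could be followed only as ratios. The 7 tested features of sympathetic neuroblast genes (5 genes) had fitted values of 0.0040 to 0.16, with a median of 0.072, and 0 were called in limma. The list's medians by array were -0.034, 0.18, -0.010, 0.015 and 0.058. The features of Hand2 (5269 and 39908) and Phox2a (2011) had the highest fitted values and read 0.66, 0.71 and 0.64 in replicate 2 against -0.056 to 0.12 in the other arrays. Of the fibroblast list 1 feature was measured on all 5 arrays, at 0.012, and of the glial list 0 were. Whether a shift in the mix of cells moved with the members' values was not tested.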

How the data were processed

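The authors' deposited ratios of N18 mouse neuroblastoma RNA, taken to be log2, were analysed, 44290 features on 5 two-colour arrays, with 0 columns of other samples. Per the labels, Trizol RNA was used and dyes were swapped. Scanning, background correction, normalization, log base and direction are not given in the sources used here. Base 2 was assumed, and direction was read from Dyrk1a feature 6362. Of the features 32042 name 1 gene and 31906 of those matched a RefSeq gene identifier. The 20113 features with a value on all 5 arrays (63.8% to 70.0% had one per array) were centred per array on their median and fitted probe by probe in limma 3.58.1 (R 4.3.3, lmFit and eBayes, two-sided), with a Dyrk1a effect and a dye effect (+1 for Dyrk1a in Cy5, -1 for Cy3). P-values were adjusted by Benjamini-Hochberg over all of them and called under 0.05. The fit was also run on simulated data with changes of known size and, for each feature, the same spread on every array. That run does not cover arrays of unequal spread, as these are.

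The members and lists were chosen with earlier results of these data known. Every member probe is named, with Dyrk1a and, from each of 4 lists, the 2 probes of smallest p per direction. Promoter sequences are from RefSeq, GRCm38.p6. No intensities were used, so dim probes could not be filtered. The number of arrays limits precision. Alternatives covered dye, centring, scaling, quantile normalization, array weights, missing values, unnamed features, robust eBayes, probe averaging, single arrays left out and the sign of replicates 4 and 5. Python 3.11.15 with pandas 2.3.3 and matplotlib 3.10.9 prepared tables and plots.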

Additional observations from a re-analysis of the deposited data

Results flagged for a closer look

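Of 37 values tested for an array far from the others, 3 had one, where chance gives about 1 in 20. The Gfi1b probe (feature 22551) was at 0.16 in replicate 1 against 0.014 to 0.053 in the others. The Brms1 probe (feature 18470) was at 0.65 in replicate 2 against -0.082 to 0.12 in the others. The median of the 13 member probes was -0.13 in replicate 3, where 10 of the 13 were below 0, against -0.0080 to 0.031 in the other arrays.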

How the results depend on the processing

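Of 510 values of 30 named probes under 17 alternatives, 460 kept direction and side of the threshold, 38 changed direction, 10 came past the threshold and 2 fell back. The cause of the changes was not tested. Without a dye term Rest (feature 11246) was at 0.020 and Hdac1 at -0.039. Rest (11246) was at 0.0014 without centring and at 0.00058 with centring on every measured feature. With arrays scaled to the same spread 301 features were called (46 higher, 255 lower) and 1116 dye effects, with Hdac2 at 0.018 and Rcor2 at 0.0096. Quantile normalization gave 356 (63 higher, 293 lower) and 1215 dye effects, with Hdac2 at 0.027 and Rcor2 at 0.021. Array weights gave 1933 (820 higher, 1113 lower), 2 members (Hmg20b and Rcor1 36826), 5516 dye effects, a CoREST partner median of 0.0056, Hdac2 at 0.0098, Rcor3 (24052) at 0.011, Kdm1a at 0.011 and Oprm1 at 0.0029. Without unnamed features 33 dye effects were called, against 442 with them. Averaging a gene's probes gave 88 called genes of 11191 (8 higher, 80 lower), 37 dye effects and Smarca4 at -0.014. With replicates 4 and 5 turned in sign 442 were called (163 higher, 279 lower), with 2 members (Rcor2 at -0.22 and Hdac1 at -0.24) and 1 dye effect. The SIN3 partner median was then -0.0083 and the neuronal gene median 0.019. In that reading Rcor3 (855) was at 0.039, Rest at 0.11 (11246) and 0.082 (27591), Sin3a at 0.055, Hmg20b at 0.15, Rcor1 (35808) at -0.072, Dyrk1a at -0.24, Ctbp2 at -0.020, Gse1 at 0.12, Sin3b at -0.10, Ing2 at 0.037, Usp15 at 0.23 and Chrm4 at 0.093. Leaving out 1 array gave 0 to 614 calls (0 to 167 higher, 0 to 447 lower), 0 to 1 members and 74 to 2754 dye effects, with the highest count of calls without replicate 2. The fitted values then ran from -0.0053 to 0.027 for Hdac1, -0.13 to 0.091 for Hdac2, -0.027 to 0.0050 for Kdm1a, -0.037 to 0.14 for Rcor1 (35808), -0.055 to 0.0095 and -0.10 to 0.016 for Rcor3 (24052 and 855), -0.087 to 0.059 for Rest (11246), and 0.0095 to 0.038 for the CoREST partner median. Each array sets 1 Dyrk1a sample against 1 control sample, so pairing by array is built into every ratio. No further pairing was analysed.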
